A study of Homo sapiens with 18 samples.

Results

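Withaferin A (WA) and withanone (WN) were set against each other in SK-N-SH cells, each at 1 µM for 24 h, by comparing the 3 arrays labelled SKNSH_WA with the 3 labelled SKNSH_WN. These are 6 of the 18 arrays of the series, which also holds 3 SK-N-SH arrays with the solvent DMSO and the same 3 groups in IMR-32. SK-N-SH is an established human neuroblastoma line without amplified MYCN, known to contain both neuroblastic and substrate-adherent cells, and IMR-32 is a neuroblastoma line with amplified MYCN. All groups shared the same serum-supplemented medium and the 24 h time, and the labels name no genetic change. Total RNA of each sample was hybridised to 1 Illumina HumanHT-12 v4 array. The labels number the replicates without saying that they came from separate cultures, so p-values measure the spread between these samples, which may be technical.

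Both compounds belong to the withanolides, a family of steroidal lactones from Withania somnifera, and what sets them apart is where the steroid carries its epoxide and hydroxyl groups. Withaferin A is known to react with cysteine residues of proteins, among them KEAP1, vimentin and HSP90. KEAP1 is the sensor that marks the transcription factor NRF2 for degradation, and cysteine modification of KEAP1 lets NRF2 reach genes for antioxidant enzymes, glutathione synthesis and heme breakdown. The series as titled concerns ferroptosis, in which iron-catalysed peroxidation of membrane lipids kills the cell and which glutathione and the peroxidase GPX4 hold back.

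Levels are normalised log2 intensities of 1 probe per gene, differences are differences of group means on that log2 scale ± the standard error of the fit, and n was 3 arrays per group throughout. A gene was called different at an adjusted p under 0.05 in limma over all 12975 genes tested. Of the 88 called genes described here, 30 had a fold over 1.5 times smaller without background correction, and their median level was 7.07, against 10.20 for the other 58. Several arrays stood apart from the rest. The WN arrays were dimmer, with a highest signal of 20817.6 to 21479.9 in SK-N-SH against 29825.6 to 36099.9 on the WA arrays and 31449.9 to 34608.3 on the DMSO arrays, and the dimness of these arrays and withanone cannot be told apart. WA replicate 1 responded less than the other WA arrays: across genes its difference from the WN mean had a slope of 0.558 against the mean of the other WA arrays, compared with 1.05 and 1.08 for replicates 2 and 3. In bulk RNA, fewer cells of a type and less RNA per cell cannot be told apart.

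Withaferin A and withanone, the 1 pair of compounds compared here, gave widely different expression. Of the 12975 genes tested, 3631 (28%) were called, 2019 (15.6%) higher and 1612 (12.4%) lower with WA than with WN. Of these, 1408 differed at least 2-fold, 692 higher and 716 lower, and 184 at least 4-fold. The 3 WA and 3 WN arrays did not overlap for 5561 genes (42.9%). Leaving out WA replicate 3, WN replicate 1 or WN replicate 2 left 2400, 2015 and 2001 calls. Without background correction 577 genes were called at 2-fold or more.

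**Figure D1:**
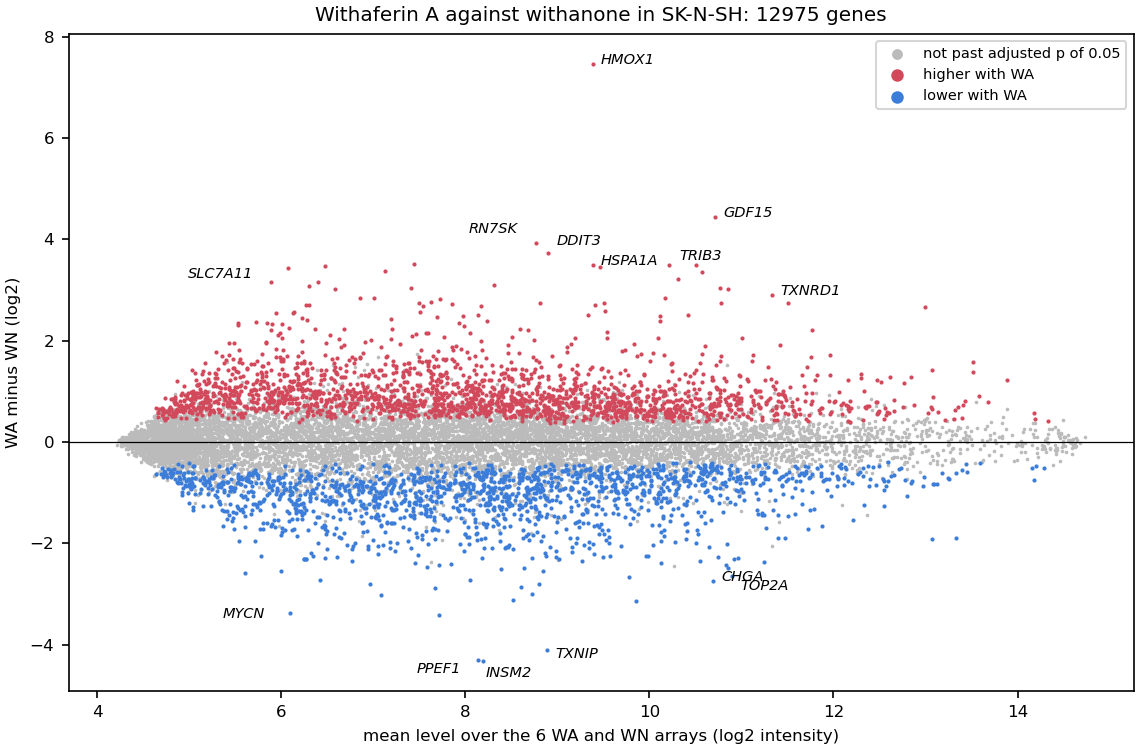
WA minus WN difference for SK-N-SH (log2, vertical axis) against the mean level over the 6 arrays (log2 intensity, horizontal axis), 1 point per gene. Red points are the 2019 genes higher with WA, blue points the 1612 lower, grey points those not called, and HMOX1 lies at 7.47, above every other gene.

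The DMSO arrays place each compound. Withanone against DMSO gave 0 of 12975 calls (0%) in limma, with a smallest adjusted p of 0.163, although 1580 genes (12.2%) had an unadjusted p under 0.05 and 86 differed at least 2-fold. Fitting all 18 arrays together gave 238 calls and weighting the arrays 870, so differences from DMSO too small for this fit are possible. Withaferin A against DMSO gave 2694 calls (20.8%), 1435 higher (11.1%) and 1259 lower (9.7%), and 1499, 1602, 1369 and 1474 calls without WA replicate 2, WA replicate 3, DMSO replicate 1 or DMSO replicate 2. Over all genes the median absolute difference was 0.37 for WA minus WN and 0.19 for WN minus DMSO. These comparisons share arrays and are given side by side, not as independent evidence.

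The largest difference was that of HMOX1, heme oxygenase 1, which breaks heme down to biliverdin, carbon monoxide and iron. Its level was 5.54, 5.61 and 5.68 on the DMSO arrays, 5.36, 6.01 and 5.58 on the WN arrays and 12.60, 13.90 and 12.86 on the WA arrays. The WA arrays lay far above all others, and the WN and DMSO arrays overlapped. The difference was 7.47 ± 0.31, or 177-fold (adjusted p = 6.17e-06), or 5.95 on the log2 scale without background correction. WN minus DMSO was 0.05 with a 95% interval of -0.64 to 0.73.

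HMOX1 was 1 of 28 tested members of a list of NRF2 targets, of which 22 were higher with WA and 0 lower, beside 15.6% and 12.4% of all genes. The list's median difference was 1.36, against 0.03 over all genes, and it was 1.17, 1.40 and 1.41 on WA replicates 1 to 3. None of the 28 was called for WN against DMSO, where the median was -0.06 and 4 had an unadjusted p under 0.05. The higher members covered thioredoxin reduction, glutathione synthesis, quinone reduction and drug export, while TKT of the pentose phosphate pathway, at 0.23, was not called.

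TXNRD1, thioredoxin reductase 1, read 10.00, 9.92 and 9.72 with WN and 12.19, 12.99 and 13.19 with WA, with DMSO at 9.97, 10.39 and 9.94. Its groups did not overlap and the difference was 2.90 ± 0.25 (adjusted p = 0.000344). SRXN1, sulfiredoxin, which repairs overoxidised peroxiredoxins, was higher by 3.02 ± 0.24. NQO1, a quinone reductase, went from 10.07, 10.23 and 10.10 with WN to 12.60, 12.91 and 13.09 with WA, a difference of 2.73 ± 0.16. GCLM, the modifier subunit of the enzyme that starts glutathione synthesis, was higher by 2.85 ± 0.30, whereas the catalytic subunit GCLC, at 0.60 ± 0.21, was not called (adjusted p = 0.0619, and 0.0349 without WA replicate 1). BLVRB, a biliverdin reductase, was higher by 2.33 ± 0.25 (0.95 without background correction). The transcripts of NRF2 itself (NFE2L2) and of KEAP1 were higher by 1.19 ± 0.27 and 0.82 ± 0.16.

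NRF2 binds antioxidant response elements, and the RefSeq promoter of TXNRD1 is shown because it holds the core of that element in the 250 bases before the gene start (GRCh38.p14, chr12:104215529-104215778, plus strand; capitals mark the core TGACNNNGC, searched on both strands):
TXNRD1: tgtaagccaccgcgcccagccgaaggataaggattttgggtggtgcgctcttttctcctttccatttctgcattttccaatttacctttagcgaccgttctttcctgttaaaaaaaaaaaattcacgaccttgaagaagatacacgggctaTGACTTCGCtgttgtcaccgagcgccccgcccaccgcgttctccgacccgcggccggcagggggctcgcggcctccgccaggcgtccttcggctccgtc
The core begins 99 bases before the gene start. Of 26 NRF2 targets with a promoter sequence 6 (23.1%) held the core in that window, against 3013 of 27305 promoters in all (11%). Other lists had shares between these, with 7 of 35 replication genes (20%), 6 of 31 of the ATF4 list (19.4%) and 6 of 36 of the HSP70 list (16.7%). A match is a description of letters, and its absence from this window says nothing about the factor.

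**Figure D2:**
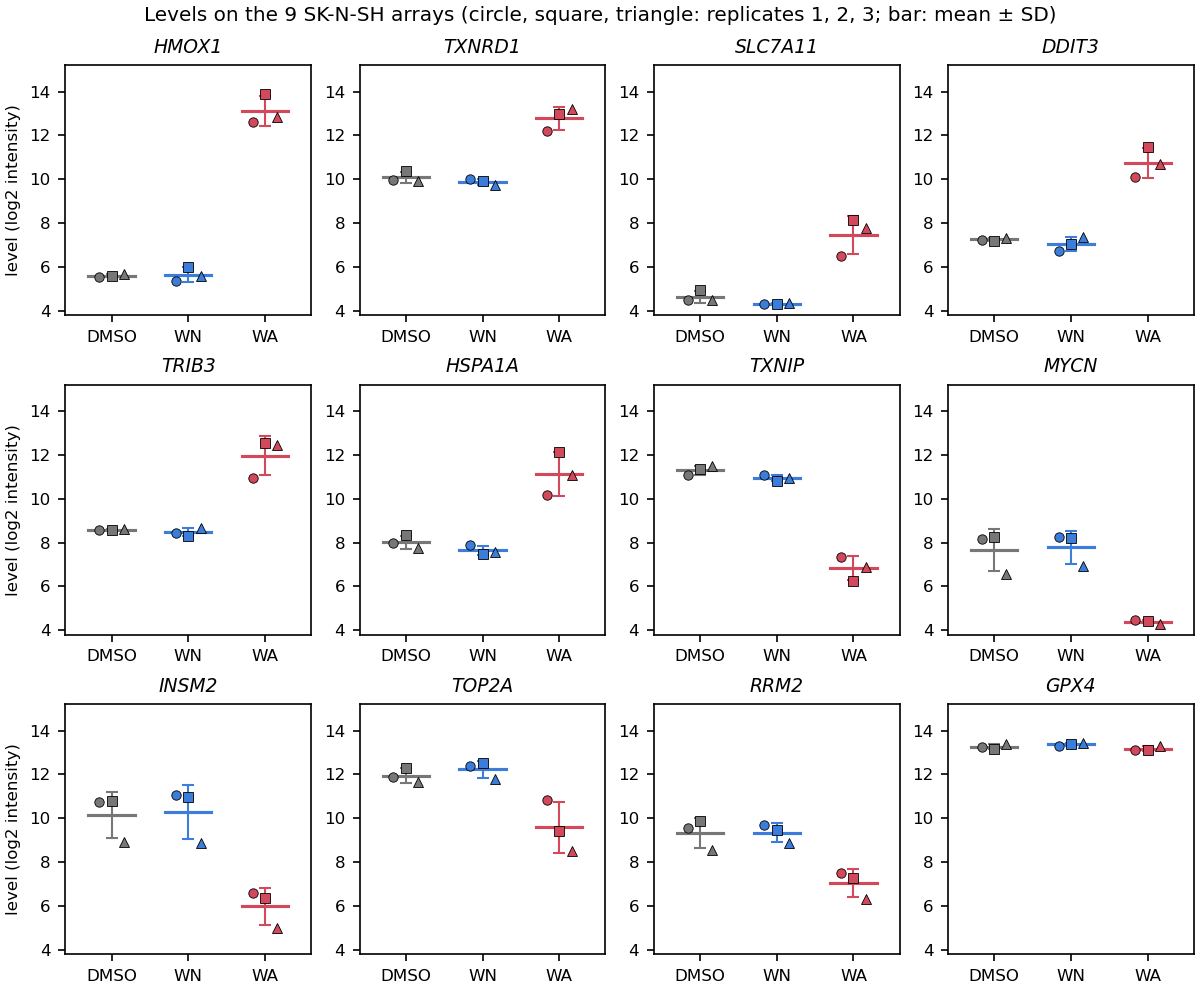
Level of 12 genes (log2 intensity, vertical axis) on each of the 9 SK-N-SH arrays by treatment, with replicates 1, 2 and 3 as circle, square and triangle and the bar at the mean ± SD of 3 arrays. The WN arrays lie beside the DMSO arrays for HMOX1 and TXNIP, whereas WA lies above or below both for all genes shown but GPX4.

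The cystine, glutathione and thioredoxin system shared part of these genes. Of 37 tested members 16 were higher and 4 lower, beside 15.6% and 12.4% of all genes, with a median of 0.60. Without WA replicate 2, WA replicate 3 or WN replicate 1, 2 were lower. The transporter that imports cystine is made of SLC7A11 and SLC3A2, and both were higher. SLC7A11 was not well above background on any WN array and read 6.50, 8.13 and 7.77 with WA, which was at least 5.68-fold higher on this scale (adjusted p = 0.000834). Without background correction its difference was 1.39 on the log2 scale. SLC3A2 was higher by 3.35 ± 0.30, from 8.70, 8.82 and 9.16 to 11.45, 12.64 and 12.63. CHAC1, which degrades glutathione, was also higher, by 3.07 ± 0.31 (1.45 without background correction). TXN, thioredoxin, was higher by 1.42 ± 0.18 and the glutathione peroxidase GPX3 by 1.63 ± 0.15, whereas the mitochondrial peroxiredoxin PRDX3 was lower by 0.78 on the log2 scale (-0.78 ± 0.13).

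TXNIP, which binds and inhibits thioredoxin and is known to respond to glucose, was the lowest member. It read 11.08, 11.34 and 11.49 with DMSO, 11.07, 10.80 and 10.94 with WN and 7.35, 6.26 and 6.89 with WA. Every WA array lay below every other array, and the difference from WN was -4.11 ± 0.25 (adjusted p = 9.13e-05).

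Among 21 tested ferroptosis regulators 9 were higher and 1 lower with WA, beside 15.6% and 12.4% of all genes, with a median of 0.42. GPX4, the peroxidase that reduces lipid hydroperoxides, read 13.28, 13.37 and 13.44 with WN and 13.12, 13.11 and 13.29 with WA. Its groups overlapped and the difference of -0.19 ± 0.14 was not called (adjusted p = 0.321), with a 95% interval of -0.50 to 0.11. AIFM2, also known as FSP1, which regenerates lipid-protecting ubiquinol, went from 4.92, 4.97 and 5.13 to 7.15, 7.57 and 7.64, a difference of 2.45 ± 0.20 that was 1.10 without background correction. SAT1, a polyamine acetyltransferase, was higher by 3.49 ± 0.47. ACSL4, which puts polyunsaturated fatty acids into a form used for membrane lipids, was higher by 0.95 ± 0.23 against WN (adjusted p = 0.0146), but WN lay below DMSO and WA minus DMSO was 0.30 (adjusted p = 0.392). Its difference from WN was 0.84, 0.91 and 0.79, no longer called, without WA replicate 3, WN replicate 1 or WN replicate 2.

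Of 27 tested genes of heme and iron handling 6 were higher and 1 lower, with a median of 0.33, beside 15.6% and 12.4% of all genes. HMOX1 and BLVRB led them, followed by SLC48A1, a heme transporter, at 1.39 ± 0.19. The transferrin receptor TFRC read 11.52, 11.32 and 11.37 with WN and 11.88, 11.43 and 12.15 with WA, and its difference of 0.42, with an interval of 0.00 to 0.84, was not called (adjusted p = 0.124). It was called without WA replicate 2, at 0.61, and in the fit of all 18 arrays. Leaving out WA replicate 3, WN replicate 1, WN replicate 2 or DMSO replicate 1 left 3 higher members of this list. No probe of the ferritin heavy chain was named, so it was not analysed here.

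Heat shock genes formed another group. Of 38 tested genes for HSP70 proteins, their DNAJ partners and small heat shock proteins 20 were higher and 0 lower. The shares of all genes were 15.6% and 12.4%. The list's median was 0.68, with medians of 0.49, 1.10 and 0.56 on WA replicates 1 to 3. HSPA1A, the stress-induced HSP70, read 7.88, 7.46 and 7.58 with WN and 10.15, 12.13 and 11.10 with WA, a difference of 3.49 ± 0.41 (adjusted p = 0.00098). HSPA1B is a near-identical copy, higher by 2.21 ± 0.40, and the probes may not separate the pair. HSPA6, an HSP70 expressed almost only under stress, was not well above background on any WN array and read 5.87, 9.78 and 8.98 with WA, at least 9.50-fold higher on this scale (adjusted p = 0.0104). That limit was 5.52-fold to 21.4-fold when single WA or WN arrays were left out, and without background correction the difference was 1.90 on the log2 scale. ZFAND2A, a heat-induced zinc finger protein, was higher by 2.38 ± 0.35, the co-chaperone BAG3 by 1.72 ± 0.31 and the small heat shock protein HSPB1 by 1.39 ± 0.21. The mitochondrial chaperonin HSPD1 at -0.14 and the endoplasmic reticulum HSP70 HSPA5 at -0.21 ± 0.17 were not called.

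Heat shock factors bind inverted repeats of GAA, and the promoter of HSPA6 is shown because 3 such units lie together in it (GRCh38.p14, chr1:161524290-161524539, plus strand; capitals mark GAA, TTC and GAA with NN between them, searched on both strands and found here on the minus strand):
HSPA6: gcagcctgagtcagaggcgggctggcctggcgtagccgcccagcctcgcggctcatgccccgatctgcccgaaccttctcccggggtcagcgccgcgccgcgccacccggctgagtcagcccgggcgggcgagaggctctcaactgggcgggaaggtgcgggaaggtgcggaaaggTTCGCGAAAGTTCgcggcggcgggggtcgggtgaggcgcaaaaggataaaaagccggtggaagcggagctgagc
The element begins 74 bases before the gene start. It stood in 4 of 36 promoters of the list (11.1%) and in 120 of 27305 promoters (0.439%).

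Other parts of protein quality control moved less. Of 17 tested genes for HSP90 and its co-chaperones 8 were higher and 2 lower, with a median of 0.31, and 5, 5 and 4 were higher without WA replicate 2, WN replicate 1 or WN replicate 2. TRAP1, the mitochondrial HSP90, was lower, at -0.97 ± 0.19. Of 30 proteasome subunits 7 were higher and 1 lower, with a median of 0.28, beside 15.6% of all genes higher, and 2 to 4 were higher without WA replicate 2 or 3 or WN replicate 1 or 2. Of 32 autophagy genes 10 were higher and 2 lower, with a median of 0.23, and 0 were lower without WN replicate 2. The cargo receptor SQSTM1, also an NRF2 target, led them, from 11.38, 11.55 and 12.05 with WN to 13.83, 14.68 and 14.48 with WA, a difference of 2.67 ± 0.27, followed by GABARAPL1 at 1.63 ± 0.28.

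Narrowly ahead of DNA replication (33 of 39), the list of the integrated stress response had the largest share of called members among the 27 lists. In this pathway phosphorylation of eIF2 lowers protein synthesis while favouring translation of ATF4, which with CHOP (DDIT3) turns on genes for amino acid supply and, under lasting stress, for cell death. Of 35 tested genes of this ATF4 and CHOP list 30 were higher and 0 lower, beside 15.6% and 12.4% of all genes. The median was 1.39, and 1.09, 1.94 and 1.44 on WA replicates 1 to 3. For WN minus DMSO the median was -0.07, 0 members were called and 0 had an unadjusted p under 0.05.

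DDIT3 read 6.71, 7.04 and 7.36 with WN, 7.25, 7.18 and 7.33 with DMSO and 10.12, 11.48 and 10.68 with WA, a difference of 3.72 ± 0.31, or 13.2-fold (adjusted p = 0.000324). GDF15, a secreted stress cytokine, was higher by 4.44 ± 0.58. TRIB3, a pseudokinase induced by CHOP, read 8.41, 8.31 and 8.67 with WN and 10.93, 12.52 and 12.45 with WA, higher by 3.50 ± 0.36. Each had all WA arrays above all WN and DMSO arrays. PPP1R15A, which directs dephosphorylation of eIF2, was higher by 3.22 ± 0.38, the transcription factor ATF3 by 3.05 ± 0.34, and ATF4 by 1.28 ± 0.17. Genes of amino acid supply were higher as well: the neutral amino acid transporter SLC7A5 by 3.04 ± 0.23, asparagine synthetase ASNS by 1.69 ± 0.30 and PSAT1 of serine synthesis by 1.60 ± 0.27. Of 18 cytosolic aminoacyl-tRNA synthetases, which load transfer RNAs, 9 were higher and 1 lower, beside 15.6% and 12.4% of all genes. Their median was 0.49, and AARS1 led them at 1.49 ± 0.17.

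The promoter of CHAC1 is shown because it holds the composite C/EBP-ATF element bound by ATF4 (GRCh38.p14, chr15:40953221-40953470, plus strand; capitals mark TGATGNAA, found on the minus strand):
CHAC1: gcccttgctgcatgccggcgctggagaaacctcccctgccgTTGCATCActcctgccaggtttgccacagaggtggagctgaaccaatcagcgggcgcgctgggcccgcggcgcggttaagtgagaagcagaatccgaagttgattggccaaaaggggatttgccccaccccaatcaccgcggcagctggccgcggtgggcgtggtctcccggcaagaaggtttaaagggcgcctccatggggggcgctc
The element begins 209 bases before the gene start. It stood in 4 of 31 promoters of the list (12.9%) and in 870 of 27305 promoters (3.19%).

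The list of the unfolded protein response of the endoplasmic reticulum, whose branches were not separated, moved less than the ATF4 list. Of 24 tested genes 9 were higher and 1 lower, beside 15.6% and 12.4% of all genes, with a median of 0.39. XBP1 was higher by 1.09 ± 0.26 and DNAJC3, a co-chaperone of HSPA5, by 1.33 ± 0.26. The chaperones HSPA5 and HYOU1, at -0.21 and -0.05 ± 0.15, were not called. Another HYOU1 probe, detected on all WA and WN arrays, was at 0.56 and was not tested by itself. Without WA replicate 2, WN replicate 1 or WN replicate 2, 3 to 5 members were higher.

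**Figure D3:**
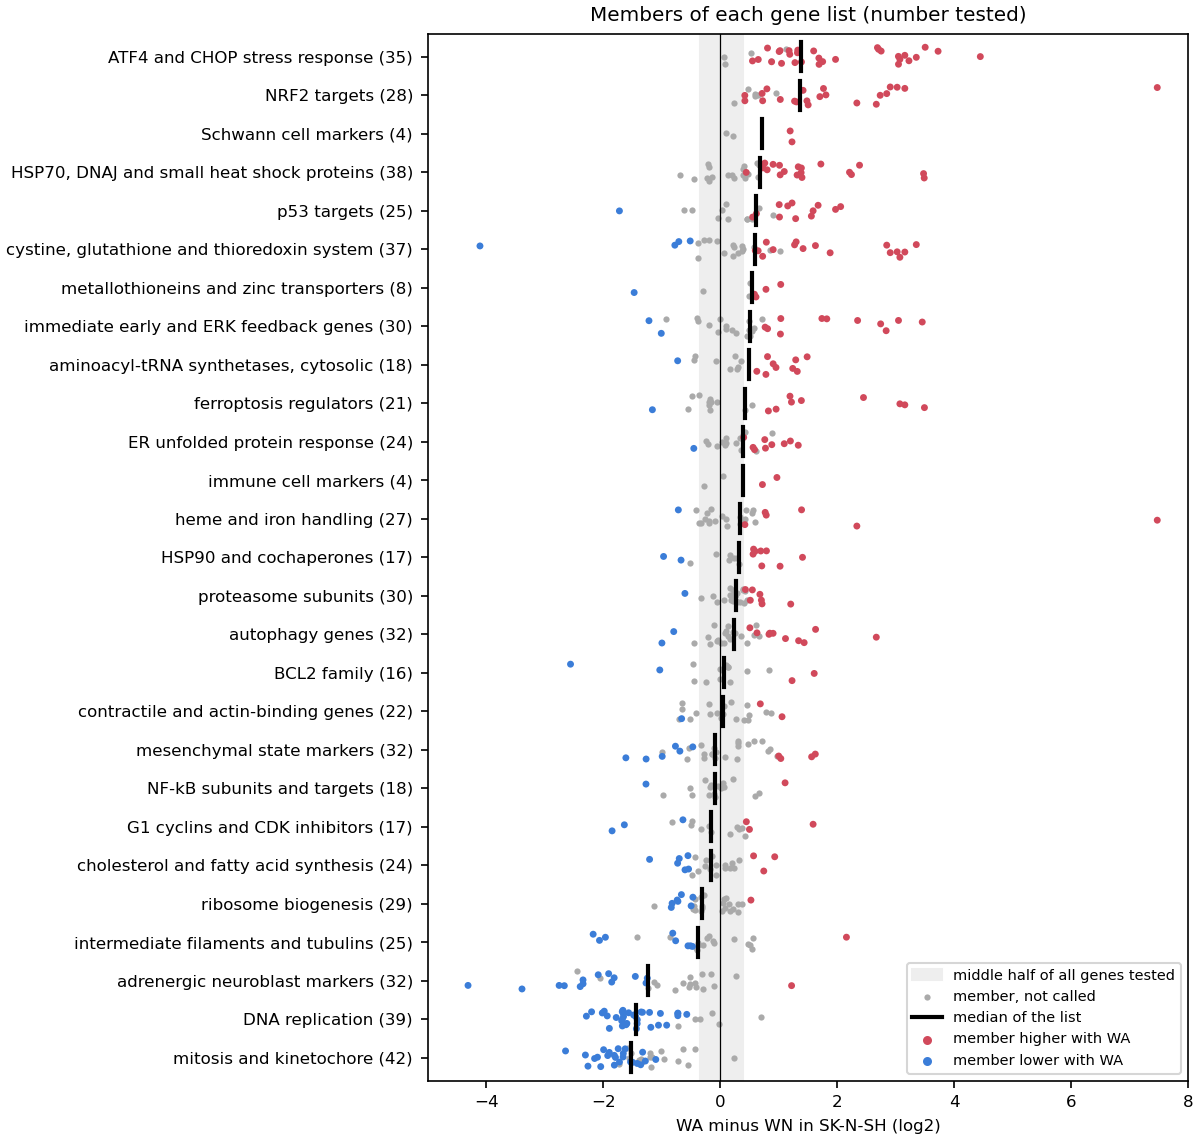
WA minus WN difference for SK-N-SH (log2, horizontal axis) for each tested member of each gene list (rows, number tested in brackets), with the list median as a black bar and the grey band running from the lower to the upper quartile of all genes tested. The ATF4 and NRF2 lists lie highest, with medians of 1.39 and 1.36, and the replication and mitosis lists lowest, with -1.43 and -1.53.

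Genes of the cell cycle were lower with withaferin A. Of 39 tested genes of DNA replication 33 were lower and 0 higher, beside 12.4% and 15.6% of all genes. The median was -1.43, and -0.80, -1.46 and -1.90 on WA replicates 1 to 3. For WN minus DMSO the median was 0.05 and 0 were called. RRM2, the small subunit of ribonucleotide reductase, read 9.69, 9.45 and 8.85 with WN and 7.52, 7.28 and 6.33 with WA, with DMSO at 9.57, 9.86 and 8.56, and the difference from WN was -2.29 ± 0.40 (adjusted p = 0.0038). All WA arrays lay below all WN and DMSO arrays. The helicase subunit MCM4 was lower, at -1.98 ± 0.31, thymidylate synthase TYMS at -1.89 ± 0.33 and the sliding clamp PCNA at -1.19 ± 0.23. The origin licensing factor CDC6 at -0.34 and the single-strand binding subunit RPA2 at -0.01 were not called.

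The mitosis and kinetochore list differed most between the WA arrays. Of 42 tested genes 24 were lower and 0 higher, beside 12.4% and 15.6% of all genes. The median was -1.53, but the medians on WA replicates 1 to 3 were -0.37, -1.47 and -2.63. Without WA replicate 1 the count of lower genes was 38. Without WA replicate 2, WA replicate 3, WN replicate 1 or WN replicate 2 it was 9, 12, 10 and 10. TOP2A, topoisomerase II alpha, read 12.40, 12.50 and 11.77 with WN and 10.83, 9.43 and 8.49 with WA, a difference of -2.64 ± 0.49 (adjusted p = 0.00473). The groups did not overlap, and replicate 1 was the highest of the WA arrays. The proliferation marker MKI67 read 7.85, 8.09 and 7.27 with WN and 7.34, 5.17 and 4.57 with WA, so that WA replicate 1 lay within the WN range, and the difference was -2.04 ± 0.59 (adjusted p = 0.029). That call was lost without WA replicate 2 or 3 or WN replicate 1 or 2, at differences of -1.78, -1.48, -1.98 and -1.87. CCNB1, the mitotic cyclin, at -1.74 ± 0.62, was not called (adjusted p = 0.0638), but it was at -2.54 without WA replicate 1 (adjusted p = 0.00218). With replicate numbers as blocks in the limma fit CCNB1 was also called (adjusted p = 0.0116).

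The promoter of TOP2A is shown because it holds the cell cycle homology region, the element through which the DREAM complex represses late cell cycle genes (GRCh38.p14, chr17:40417897-40418146, minus strand of the chromosome; capitals mark TTTGAA on either strand):
TOP2A: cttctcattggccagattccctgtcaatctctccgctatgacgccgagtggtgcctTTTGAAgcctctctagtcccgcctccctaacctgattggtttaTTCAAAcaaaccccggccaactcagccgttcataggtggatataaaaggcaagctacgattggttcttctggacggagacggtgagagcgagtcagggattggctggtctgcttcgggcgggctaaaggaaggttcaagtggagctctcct
The 2 matches begin 194 and 151 bases before the gene start. The 6 letters stood in 19 of 35 promoters of the mitosis list (54.3%), in 1 of 35 of the replication list (2.86%) and in 3704 of 27305 promoters (13.6%).

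Regulators of the cell cycle outside these lists moved in both directions. Of 17 G1 cyclins and cyclin-dependent kinase inhibitors 3 were higher and 3 lower, beside 15.6% and 12.4% of all genes. The higher count was 1 without WA replicate 2 or 3 or WN replicate 1 or 2. CDKN1A, the inhibitor p21, read 12.33, 12.64 and 13.19 with WN and 14.12, 14.49 and 14.32 with WA, higher by 1.59 ± 0.26 (adjusted p = 0.0032). Its kinase partner CDK2 was lower, at -1.64 ± 0.22. Of 25 tested p53 targets 12 were higher and 1 lower with a median of 0.62. The death receptor TNFRSF10B was higher by 2.06 ± 0.23 and GADD45A by 1.56 ± 0.30, both of which CHOP or ATF4 can also induce, whereas TP53I3 was lower at -1.72 ± 0.39 and MDM2, at 0.57 ± 0.38, was not called. Of 16 genes of the BCL2 family 2 were higher and 2 lower: the anti-apoptotic BCL2 was lower at -2.56 ± 0.22 and the pro-apoptotic BID at -1.03 ± 0.15, whereas the anti-apoptotic MCL1 was higher by 1.61 ± 0.25 and the pro-apoptotic PMAIP1 (NOXA) by 1.23 ± 0.34. The PMAIP1 call was lost without WN replicate 1 or 2, at 1.21 and 1.09, and with the mean of all kept probes, at 0.946.

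**Figure D4:**
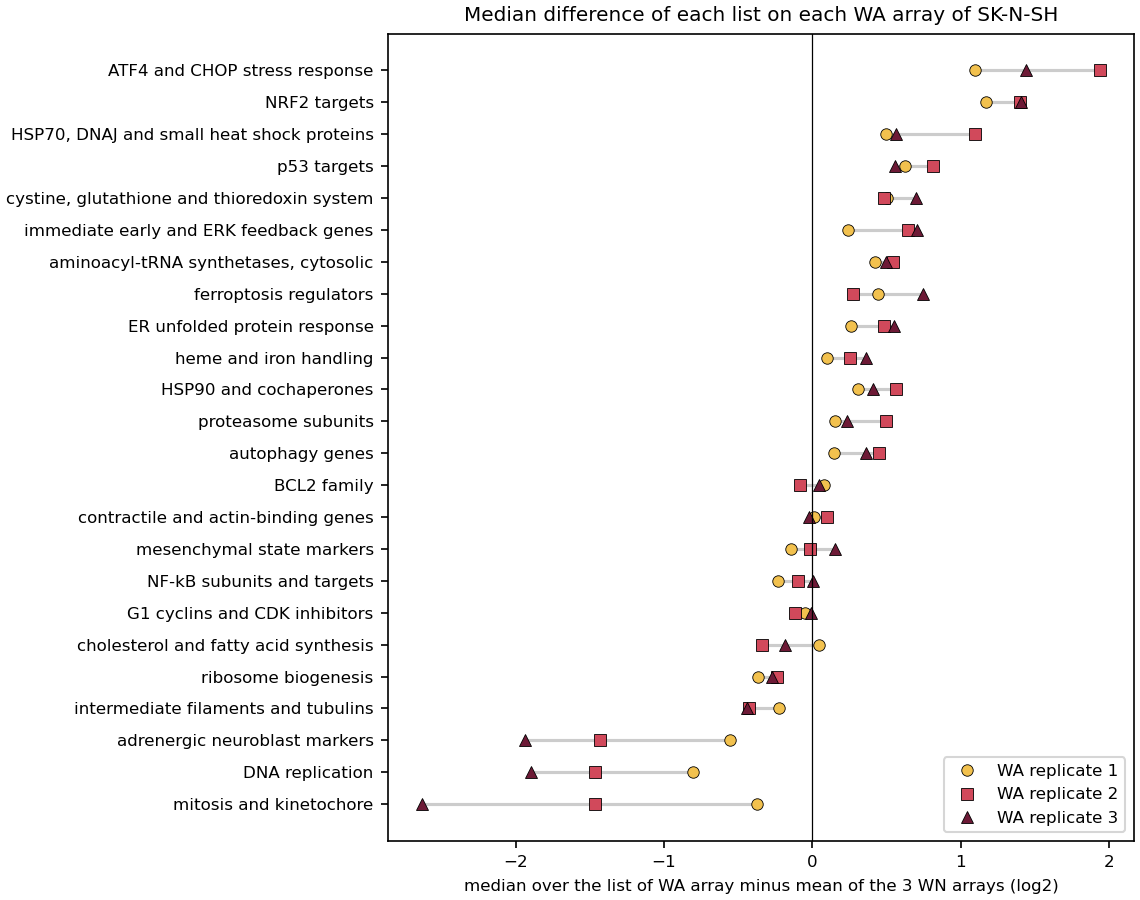
Median over each list of 15 or more tested genes (rows) of the level on a WA array minus the mean of the 3 WN arrays (log2, horizontal axis), with 1 symbol per WA array. The mitosis list spans -0.37 to -2.63 and the adrenergic list -0.55 to -1.94, whereas the NRF2 list spans 1.17 to 1.41.

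Immediate early genes, which respond to growth factor and stress kinases, and the phosphatases and sprouty proteins that damp ERK were split. Of 30 tested 11 were higher and 2 lower, beside 15.6% and 12.4% of all genes, with a median of 0.50. Without WA replicate 2 or WN replicate 1, 7 were higher. EGR1 read 7.41, 6.59 and 9.20 with WN and 11.14, 11.10 and 11.31 with WA, a difference of 3.45 ± 0.72 (adjusted p = 0.00773). Its WN and DMSO arrays were spread widely, with replicate 3 highest in both groups, and all WA arrays lay above them. FOS was higher by 2.83 ± 0.55 and JUN by 1.74 ± 0.26, whereas the ERK phosphatase DUSP6 was lower at -1.22 ± 0.24. Of 18 NF-kB subunits and targets 1 was higher and 1 lower, below the shares of all genes in either direction: NFKBIZ, a nuclear regulator of NF-kB, at 1.11 ± 0.30, and the adhesion molecule VCAM1, which was not well above background with WA and at least 1.78-fold lower there. Without background correction the difference of VCAM1 was -0.41 and was not called, and neither gene was called without WA replicate 2 (NFKBIZ at 0.91, VCAM1 at -1.25) or WA replicate 3 (NFKBIZ at 0.96, VCAM1 at -1.29).

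The adrenergic neuroblast state is the sympathetic identity of neuroblastoma cells. Of 32 tested markers of it 14 were lower with WA, 1 was higher and 17 were not called. Of all genes 12.4% were lower and 15.6% higher. The list's median was -1.24, and -0.55, -1.43 and -1.94 on WA replicates 1 to 3. Without WA replicate 2, WN replicate 1 or WN replicate 2 the count of lower members was 9, 8 and 8. For WN minus DMSO the median was 0.11. MYCN read 8.16, 8.25 and 6.57 with DMSO, 8.23, 8.19 and 6.93 with WN and 4.46, 4.43 and 4.31 with WA, where it was not well above background on any array. It was at least 7.11-fold lower than with WN on this scale (adjusted p = 0.00151), and without background correction its difference was -1.55 on the log2 scale. INSM2, a zinc finger factor of neuroendocrine cells, read 11.04, 10.97 and 8.86 with WN and 6.58, 6.37 and 5.00 with WA, a difference of -4.31 ± 0.69, and replicate 3 was the lowest of its group in WN, DMSO and WA.

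Members with other roles followed in part. Chromogranin A (CHGA), of secretory granules, was lower at -2.75 ± 0.63, the transcription factor SOX11 at -2.39 ± 0.30, the growth cone protein GAP43 at -2.08 ± 0.21 and the autonomic neuron factor PHOX2A at -1.85 ± 0.31. Dopamine beta-hydroxylase (DBH), at -2.06 ± 0.75, was not called (adjusted p = 0.0653), though it was at -2.81 without WA replicate 1 (adjusted p = 0.0121). With replicate numbers as blocks in the limma fit DBH was also called (adjusted p = 0.00137). VGF, a secreted neuropeptide precursor, was the higher member, at 1.22 ± 0.26. The defining markers TH and SLC18A2 were not well above background on any SK-N-SH array, whereas 28 or more of 33 list genes with a probe were detected on all arrays of each SK-N-SH group.

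Of 32 tested markers of the mesenchymal state 4 were higher and 6 lower, beside 15.6% and 12.4% of all genes, with a median of -0.09. Without WA replicate 2, WA replicate 3, WN replicate 1 or WN replicate 2, 0 were higher, and without WA replicate 1, 7 were higher and 3 lower with a median of 0.12. The lower count was 2 or 3 without WA replicate 2, WA replicate 3, WN replicate 1 or WN replicate 3. The transcription factor TWIST1 was lower at -1.27 ± 0.28 and the matrix protein THBS1 at -1.61 ± 0.38. Summed over the list the linear signal ran from 57256 to 70565 on the WA arrays, 62598 to 78782 on the WN arrays and 57325 to 82129 on the DMSO arrays, so the groups overlapped. For the adrenergic list it ran from 62913 to 84392 with WA, 85320 to 116180 with WN and 74949 to 107120 with DMSO. Of 4 tested Schwann cell markers 2 were higher (ERBB2 and MBP), with SOX10, S100B, FOXD3 and CDH19 not well above background in any SK-N-SH group and list sums of 380 to 431 with WA and 258 to 276 with WN. Of 4 tested immune markers CD68 and CD14 were higher (CD68 at 0.57 to 0.70 and not called without WA replicate 2 or 3 or WN replicate 1 or 2), with PTPRC, CD3E and ITGAM not well above background in any SK-N-SH group and sums of 1765 to 2076 with WA and 728 to 1108 with WN. The other kept probes of CD68 had larger differences, at 1.73 and 1.25. Whether a change in the proportion of cell types takes part in the adrenergic differences was not tested.

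Vimentin, a protein that withaferin A is known to bind, was not called as a transcript. VIM read 14.40, 14.56 and 14.63 with WN and 14.11, 14.53 and 14.64 with WA, the groups overlapped, and the difference was -0.10 ± 0.17 (adjusted p = 0.686) with a 95% interval of -0.48 to 0.28. Of 25 intermediate filament and tubulin genes 8 were lower and 1 higher, beside 12.4% and 15.6% of all genes, with a median of -0.39. Without WA replicate 2 or 3 or WN replicate 1 or 2, 2 or 3 were lower. The nuclear lamina gene LMNB1 was lower at -2.06 ± 0.46, whereas TUBA4A was higher by 2.16 ± 0.35 and the neuronal tubulin TUBB3, at -0.22 ± 0.16, was not called. Of 22 contractile and actin-binding genes 2 were higher and 1 lower, below the shares of all genes in either direction, with a median of 0.05.

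Lists of metabolism and growth moved little or in both directions. Of 24 cholesterol and fatty acid synthesis genes 3 were higher and 6 lower with a median of -0.16, beside 15.6% and 12.4% of all genes, and fatty acid synthase FASN, at -0.07 ± 0.20, was not called. Leaving out any WA or WN array but WA replicate 1, or DMSO replicate 1, left 1 to 3 lower members. Of 29 ribosome biogenesis genes 7 were lower and 1 higher, with a median of -0.32, and 2 to 4 were lower without WA replicate 2 or 3 or any of the WN arrays. Of 8 metallothionein and zinc transporter genes 4 were higher and 1 lower, with a median of 0.55. These calls did not stand when single arrays were left out, with 0 higher members without WA replicate 3 or WN replicate 1.

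Outside the lists the genes with the largest differences had varied roles. RN7SK, the small nuclear RNA that holds the elongation factor P-TEFb inactive, was higher by 3.92 ± 0.34, with 6.53, 6.57 and 7.30 with WN and 10.78, 11.37 and 10.03 with WA. Sphingosine kinase 1 (SPHK1) was higher by 3.50 ± 0.39 and the histone gene H4C8 by 3.38 ± 0.41. At the other end PPEF1, a protein phosphatase, read 10.82, 10.34 and 9.90 with WN and 7.64, 5.60 and 4.86 with WA, a difference of -4.32 ± 0.58. TMEM100 was lower at -3.42 ± 0.41, LRRN3 at -3.14 ± 0.37, the adenylyl cyclase ADCY1 at -3.12 ± 0.62, the homeobox factor CUX2 at -3.03 ± 0.57, STRA6, a receptor for retinol uptake, at -2.89 ± 0.40 and the neuropeptide galanin (GAL) at -2.86 ± 0.50. In all of these the WA and WN arrays did not overlap, as the rule for naming them required.

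WA minus WN in IMR-32 gave 3081 calls (23.7%) in a fit of all 18 arrays, in which WA minus WN in SK-N-SH gave 4969. That fit uses a single spread per gene for both lines, so its p-values do not measure the spread of each line. The WA arrays deviated from their group mean with an SD of 0.265 to 0.365 in SK-N-SH and 0.170 to 0.218 in IMR-32. The difference between the lines was called in that fit for 1158 genes (8.92%). Of these, 666 (5.13%) were higher and 492 (3.79%) lower in SK-N-SH relative to IMR-32. The count between lines was 2400 without WA replicate 1 of SK-N-SH, and 740, 720 and 675 without its WA replicate 2, WN replicate 1 or WN replicate 2. Of the ATF4 list, 20 of 35 members were higher and 0 lower in SK-N-SH relative to IMR-32, where the list median was 0.34. Of the aminoacyl-tRNA synthetases 11 of 18 were likewise higher in SK-N-SH relative to IMR-32. Of the NRF2 targets 10 were higher and 2 lower in SK-N-SH relative to IMR-32, where the median was 0.89, of the replication genes 5 of 39 were lower, and of the mitosis genes 9 of 42, with an IMR-32 median of 0.01. HMOX1 differed by 6.11 ± 0.32 in IMR-32, and the difference between the lines of 1.35 ± 0.45 was not called (adjusted p = 0.0696).

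Single genes follow, with the line in which each was measured. HSPA1A, at 3.49 in SK-N-SH, was not well above background on any WA or WN array of IMR-32. It read 4.38, 4.74 and 4.64 there with WA and 4.34, 4.43 and 4.52 with WN, so that a size of its difference there was not measured. Its near-identical copy HSPA1B read 12.57, 12.67 and 12.66 with WA and 10.94, 11.10 and 11.38 with WN in IMR-32. For HSPA1B the difference between the lines, 0.72, was not called (adjusted p = 0.342 in limma). MYCN, at a level of 14.70 with WN in IMR-32 and so near the top of the measured range, differed there by -0.32 ± 0.36. Since MYCN was near background with WA in SK-N-SH and near the top of the range in IMR-32, its difference between the lines was not measured. TMEM100 was at 0.69 in IMR-32 but at -3.42 in SK-N-SH, and UPP1, uridine phosphorylase, at -0.59 and 2.74. In IMR-32 TMEM100 was detected on 2 WA arrays and 1 WN array, and UPP1 on 1 WA array and 2 WN arrays. Both lay near background there, so their IMR-32 values give no measured size. In the other direction the aldo-keto reductase AKR1C3, an NRF2 target, was at 5.61 in IMR-32 but at 1.70 in SK-N-SH, though the AKR1C genes are near-identical and their probes may share signal. Its SK-N-SH difference was not called without WN replicate 1 or 2, at 1.55 in both. ANXA1, annexin A1, was not called in SK-N-SH, at 0.26 ± 0.26, and in IMR-32 read 8.83, 8.66 and 6.48 with WA while it was not well above background on any WN array. The serotonin receptor HTR3A was at -3.28 in IMR-32 and not well above background on any WA or WN array of SK-N-SH.

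**Figure D5:**
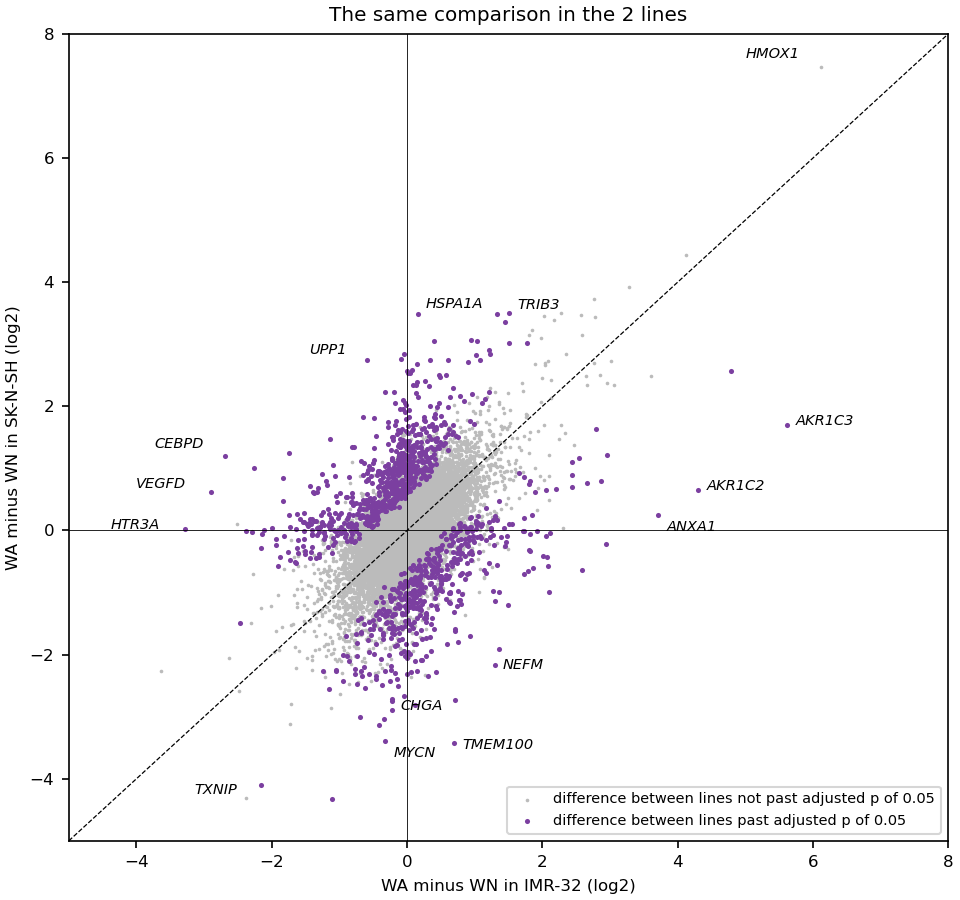
Difference between WA and WN (log2) in SK-N-SH (vertical axis) against that in IMR-32 (horizontal axis), 1 point per gene, with the dashed line marking equality. Purple points are the 1158 genes whose difference between the lines was called, with HSPA1A and MYCN far from the line in SK-N-SH and AKR1C3 and HTR3A in IMR-32. HSPA1A lay near background in IMR-32, HTR3A in SK-N-SH, and MYCN with WA in SK-N-SH.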

How the data were processed

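Illumina HumanHT-12 v4 arrays of 18 samples were used, of which the 9 of SK-N-SH entered the main comparisons. The authors deposited signal intensity per probe, not normalised between arrays, and detection p-values per probe and array, per the file headers. The authors also deposited a matrix of log2 values with equal quantiles on every array, for which the submitters' processing notes name limma and whose version is not given in the sources used here. It followed the log2 signals of the same arrays at r of 0.995 or more and was used as an alternative. Of 47224 probes, 2 with missing values were left out. On the WN arrays of both lines the detection p-values as deposited were out of step with the signals (66.5 to 68.1% of probes within 0.02 of a falling function of signal, against 99.99% or more elsewhere). On each of these arrays they were replaced by a falling function of the array's own signal. It was fitted to the array's own deposited p-values by a running median over 101 probes and isotonic regression.

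Signals were background-corrected, quantile-normalised and logged with neqc of limma 3.58.1 (offset 16). Probes detected at p under 0.01 on at least 3 of 18 arrays were kept (23320), named through the platform annotation with symbols updated by Entrez identifier (30068 of 30115 named probes, with 30107 naming 1 gene, 8 several and 17107 none), and the probe with the highest mean stood for a gene, which gave 12975 genes, 3703 of them with more than 1 kept probe. A gene detected at that threshold on no array of a group is written as not well above background there. Group means were fitted with lmFit and eBayes over the 9 SK-N-SH arrays, and over all 18 for the difference between lines, with Benjamini-Hochberg adjustment over all genes. The routine was tested on simulated data. Array signals give no read depth, and 3 arrays per group limit the precision.

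The compounds, the 27 gene lists (748 symbols, 701 with a probe and 634 tested) and the alternatives were chosen with earlier results of these data known. Genes were named by rule: the largest differences with non-overlapping detected groups (up to 12 each way), the largest called members of each list (up to 4), a set of 14 stress and identity genes, and the largest differences between lines (up to 5 each way). Other members named for their role were chosen after their values were seen. Promoters are RefSeq sequences on GRCh38.p14, and 27305 were searched.

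Replicate numbers recur in each group. Deviations from the group means correlated by number for WN and DMSO (r of 0.458, 0.372 and 0.663) and for WA and DMSO (0.318, 0.214 and 0.308). For WA and WN they did not in every pair (0.256, 0.042 and 0.413). Some unlike numbers correlated as well, such as WN replicate 1 with DMSO replicate 2 at 0.317. Others did not, such as WN replicate 1 with DMSO replicate 3 at -0.538. The main fit did not pair the arrays, and a replicate block was used only as an alternative.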

Additional observations from a re-analysis of the deposited data

Results flagged for a closer look

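Of 105 genes described above, 43 had a WA minus WN difference that was called as different between SK-N-SH and IMR-32 in the limma fit of all 18 arrays, beside 8.92% of all genes. Genes were described partly for such differences, so that share is a description. Values below are the SK-N-SH difference minus the IMR-32 difference on the log2 scale. In 8 of the 43 genes at least 1 of the 4 groups compared was not well above background, so that the value is not a measured size. These are HSPA1A, VCAM1, THBS1 and MBP in IMR-32 with both compounds, CHAC1 and ANXA1 in IMR-32 with WN, HTR3A in SK-N-SH with both compounds, and MYCN and VCAM1 in SK-N-SH with WA. MYCN was also near the top of the measured range in IMR-32. For HSPA1A, VCAM1, THBS1, MBP and HTR3A a whole line was not well above background. Their values mainly repeat the difference of the other line and show no direction of a differing response. TMEM100, UPP1, GABARAPL1 and CUX2 were detected on some but not all IMR-32 arrays of each compound, so their values rest on signals near background there.

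Among genes of the ATF4 and CHOP response and of amino acid supply all were positive: SLC7A5 2.65, CHAC1 2.13, ATF3 2.01, TRIB3 2.00, SLC3A2 1.90, PSAT1 1.52, ASNS 1.31, ATF4 1.06, AARS1 1.04 and the death receptor TNFRSF10B 0.95. XBP1 of the unfolded protein response was at 1.14. Antioxidant genes and NRF2 targets went both ways, with TXNRD1 at 1.69, GCLM at 1.63, SRXN1 at 1.52, NFE2L2 at 1.22 and TXN at 0.85, but AKR1C3 at -3.91 and GPX3 at -1.17. TXNIP, the inhibitor of thioredoxin, was at -1.94. HSPA1A was at 3.33, the polyamine enzyme SAT1 at 2.17 and the autophagy gene GABARAPL1 at 1.70. HSPA1B, the near-identical copy of HSPA1A and detected in both lines, was at 0.72 and not called (adjusted p = 0.342 in limma).

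Of 32 tested adrenergic markers 11 were lower and 2 higher in SK-N-SH relative to IMR-32, beside 3.79% and 5.13% of all genes. The described ones detected on all arrays compared were negative: CHGA at -2.53, GAP43 at -2.29, SOX11 at -1.94, VGF at -1.73 and PHOX2A at -1.68. MYCN, counted among the 11 lower, had a fitted value of -3.06, which is not a measured size. It was near background with WA in SK-N-SH and near the top of the range in IMR-32, so its value shows no direction of a differing response. VGF, higher with WA in SK-N-SH, was therefore higher still in IMR-32. Lists of cell cycle and cell death regulators had few calls between the lines, beside 5.13% of all genes higher and 3.79% lower. Of 25 tested p53 targets 3 were higher and 1 lower. Of 16 genes of the BCL2 family 2 were higher and 3 lower, and of 17 G1 regulators 1 was higher and 2 lower. Described members were TP53I3 at -2.06, BCL2 at -1.40, CDK2 at -0.95 and BID at -0.78. The remaining genes were TMEM100 at -4.12, ANXA1 at -3.46, PPEF1 at -3.21, LRRN3 at -2.72, CUX2 at -2.69, STRA6 at -2.67, THBS1 at -1.82 and VCAM1 at -1.44, with UPP1 at 3.33, HTR3A at 3.30 and the myelin gene MBP at 1.17.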

How the results depend on the processing

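Of the 105 genes described, 88 were called for WA minus WN, of which 81 stayed called under all 21 alternatives, 7 lost the call under at least 1 and 0 changed sign. Of the 17 not called, 4 were called under at least 1. The count of WA minus WN calls ran from 2001 to 4306 over the arrays left out, lowest without WN replicate 2, and the count at 2-fold or more from 1080 to 1977. The authors' matrix and quantile normalisation without background correction each gave 577 at 2-fold or more. WN minus DMSO gave 238 calls with all 18 arrays in the fit and 870 with array weights, against 0. WA minus DMSO gave 4134 and 4207 under the same settings and 1369 to 3770 over the arrays left out. The difference between lines gave 3028 calls with array weights and 675 to 2400 over the arrays left out. Centring on the median in place of quantile normalisation made 68.48% of those calls higher in SK-N-SH, against 57.51%, with the median of all genes at 0.11 in place of 0.02. With the replicate block the calls were 4691 for WA minus WN, 1557 at 2-fold or more, 0 for WN minus DMSO, 3812 for WA minus DMSO and 2167 between lines, and the WA and WN numbers pair only in part. The causes of these shifts were not tested. Genes whose probe had an out-of-register detection p-value on a WN array were called in 26.4% of 3592 cases, against 28.6% of the other 9383. Signal over background limits the dim genes. Without background correction 30 of the 88 called genes had a fold over 1.5 times smaller, and 1 of these, VCAM1, lost its call. Beside those given above, the values were ATF3 1.94, DDIT3 3.01, FOS 1.58, RN7SK 3.11, SPHK1 2.21, H4C8 1.98, TUBA4A 0.89, DNAJC3 0.54, ERBB2 0.56, MBP 0.51, CD14 0.37, TXNIP -3.28, INSM2 -3.08, PPEF1 -3.02, ADCY1 -2.33, GAL -2.26, TMEM100 -2.25, STRA6 -1.93, CUX2 -1.71, RRM2 -1.69, LMNB1 -1.19 and MKI67 -0.98.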

Other observations

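Small nuclear RNAs are RNA parts of the splicing machinery and of transcription control. The class, taken by RefSeq gene type after RN7SK had been seen among the largest differences, held 13 tested genes, of which 8, RN7SK included, were higher with WA than with WN, 0 lower and 5 not called, beside 15.6% and 12.4% of all genes, with a median difference of 1.70. For WN minus DMSO the median was -0.32. RNU4-2, a copy of the U4 RNA, read 5.25, 4.81 and 4.70 with WN, 5.61, 4.63 and 4.62 with DMSO and 6.98, 8.69 and 7.20 with WA, a difference of 2.70 ± 0.43 (adjusted p = 0.00285 in limma). RNVU1-7, a variant of U1, was higher by 2.42 ± 0.31. The groups did not overlap in either, but these genes have near-identical copies that a probe may not separate. The U1 genes RNU1-1, RNU1-3, RNVU1-7 and RNVU1-18 are all among the 8 higher members, which are therefore not 8 separate RNAs. The small nucleolar RNAs, tested alongside, had 9 of 141 higher and 9 lower with a median of -0.06.

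Replication-dependent histone genes, chosen in the same way, had 15 of 45 higher and 1 lower with WA, beside 15.6% and 12.4% of all genes, with a median of 0.43. H4C8 read 4.86, 5.25 and 6.19 with WN and 8.24, 9.40 and 8.82 with WA. H2AC18 was higher by 2.50 ± 0.46 and H2BC12 by 1.16 ± 0.21. H4C3 was the lower member, at -1.91 ± 0.35, from 14.15, 14.15 and 13.77 with WN to 12.11, 11.95 and 12.27 with WA. Histone genes are near-identical in part, and these values hold for the probes.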
